A study of Saccharomyces cerevisiae with 2 samples.

Results

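The genes described here are the 10 nuclear genes for phenylalanine tRNA of Saccharomyces cerevisiae, tF(GAA)B, tF(GAA)D, tF(GAA)F, tF(GAA)G, tF(GAA)H1, tF(GAA)H2, tF(GAA)M, tF(GAA)N, tF(GAA)P1 and tF(GAA)P2. They were chosen by name, as all listed nuclear genes whose name gives phenylalanine (F) and the anticodon GAA, and they are 10 of the 252 tRNA genes listed and of the 239 that are nuclear. The name of tF(GAA)D is misprinted tF(GAA(D in the deposited table. RNA from cells in S phase was sequenced from a WT strain, which carries wild type CDK1, and from a cdk1-as1 strain, with 1 library each. The sample labels name total RNA, while the study's methods name a purification of small RNA, and the values do not show which was sequenced. In cdk1-as1 cells a glycine at residue 88 of the kinase Cdk1 widens its ATP pocket so that a bulky inhibitor fits, and the kinase is weakened even when no inhibitor is given. No inhibitor is named for these libraries. Both strains were held before S phase with α factor, a mating pheromone, at 15 mg/L for 3 h, then washed and released. The release medium was YPD with or without nocodazole, and which of these was used for the libraries is not stated. The comparison asks how tRNA levels in S phase differ between cells with wild type Cdk1 and cells with the weakened kinase.

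RNA polymerase III (RNAPIII) makes the tRNAs. Its factor TFIIIC binds the A box and the B box, which lie inside the transcribed gene, and brings in TFIIIB, which in turn recruits the polymerase. Transcription ends at a run of T bases after the gene. Phenylalanine tRNA reads the codons UUC and UUU. Its primary transcript carries an intron next to the anticodon, which the tRNA splicing endonuclease removes and a tRNA ligase seals, so an RNA that holds the intron has not yet been spliced.

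The 10 genes fall into 5 whole-gene sequences, shown here because the deposited values follow them. They are printed 5′ to 3′ on the strand of the gene from RefSeq (build R64, sacCer3), with the intron in capitals. The first of them is shared base for base by tF(GAA)F, tF(GAA)G, tF(GAA)H1, tF(GAA)H2, tF(GAA)P1 and tF(GAA)P2.
tF(GAA)F and 5 identical copies: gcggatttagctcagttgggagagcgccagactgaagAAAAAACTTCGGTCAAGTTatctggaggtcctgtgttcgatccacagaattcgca
tF(GAA)B: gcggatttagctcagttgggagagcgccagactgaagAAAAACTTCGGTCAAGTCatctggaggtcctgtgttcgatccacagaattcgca
tF(GAA)M: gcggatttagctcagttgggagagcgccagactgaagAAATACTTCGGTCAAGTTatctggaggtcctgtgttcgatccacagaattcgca
tF(GAA)D: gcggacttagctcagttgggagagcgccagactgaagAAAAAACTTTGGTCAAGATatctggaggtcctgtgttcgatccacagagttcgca
tF(GAA)N: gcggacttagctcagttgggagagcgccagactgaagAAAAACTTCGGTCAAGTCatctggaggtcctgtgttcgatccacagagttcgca

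Each gene is 92 nt long with an intron of 19 nt (tF(GAA)F, its copies and tF(GAA)D) or 91 nt long with an intron of 18 nt (tF(GAA)B, tF(GAA)M and tF(GAA)N). The exons of 37 and 36 nt join to a tRNA of 73 nt, in which the anticodon occupies positions 34 to 36 counted from 1 at the 5′ end, and the intron follows position 37. Splicing reduces the 5 gene sequences to 2 mature sequences. The common mature sequence comes from 8 genes (tF(GAA)F and its copies, tF(GAA)B and tF(GAA)M) and the other from tF(GAA)D and tF(GAA)N. They are printed to show where they differ, with the differing bases in capitals.
Common mature sequence, 8 genes: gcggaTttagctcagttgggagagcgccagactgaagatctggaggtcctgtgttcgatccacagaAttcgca
Mature sequence of tF(GAA)D and tF(GAA)N: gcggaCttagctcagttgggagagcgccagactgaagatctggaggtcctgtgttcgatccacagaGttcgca

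The substitutions from the common sequence to that of tF(GAA)D and tF(GAA)N are T6C and A67G. These positions face each other in the acceptor stem, the helix that carries the amino acid. The intron of tF(GAA)D differs from that of tF(GAA)F by C10T and T18A, counted from 1 at the intron's 5′ end. Set against the last 18 bases of the tF(GAA)F intron, the intron of tF(GAA)M has A4T, and tF(GAA)B and tF(GAA)N share an intron with T18C. tF(GAA)N therefore joins the exons of tF(GAA)D to the intron of tF(GAA)B. None of these introns or mature sequences occurs in any other nuclear tRNA gene.

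The members lie on 8 chromosomes, and each carries 1 intron. In R64, tF(GAA)F is at chrVI:157916-158007 on the minus strand, with its intron at 157952 to 157970. Its identical copies, also all on the minus strand, are tF(GAA)G at chrVII:440716-440807, tF(GAA)H1 at chrVIII:237848-237939, tF(GAA)H2 at chrVIII:358478-358569, tF(GAA)P1 at chrXVI:560198-560289 and tF(GAA)P2 at chrXVI:622540-622631. tF(GAA)D is at chrIV:1095370-1095461 on the minus strand, with its intron at 1095406 to 1095424. On the plus strand are tF(GAA)B at chrII:36398-36488 (intron 36435 to 36452), tF(GAA)M at chrXIII:352280-352370 (intron 352317 to 352334) and tF(GAA)N at chrXIV:374869-374959 (intron 374906 to 374923). No member overlaps another annotated gene. The nearest gene lay 33 nt away for tF(GAA)H2 (NDT80, a transcription factor of meiosis) and 895 nt away for tF(GAA)P2 (YOP1), and the other 8 members were between these distances. Ty retrotransposons are known in yeast for inserting upstream of tRNA genes. An LTR of such an element lay near tF(GAA)H2 (102 nt), tF(GAA)B (176 nt), tF(GAA)P1 (191 nt), tF(GAA)D (305 nt) and tF(GAA)F (368 nt). These distances were taken on either side, so they do not show whether an LTR lies upstream or downstream. They were not compared with those of other tRNA genes.

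The internal promoter is the same in every member. The A box letters TNGCNNAGT were found on the sense strand at positions 8 to 16 of the spliced sequence in 10 of 10 members, against 45.2% of the 239 nuclear tRNA genes. The B box letters GTTCGANNC were found at positions 53 to 61 in 10 of 10, against 76.6%. Neither was found on the antisense strand, and both lie outside the bases that separate the common sequence from that of tF(GAA)D and tF(GAA)N. The letters of identical copies are not independent, so these counts describe 2 sequences.

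The flanks do differ, also among the identical copies. A run of at least 5 T bases starts within 40 bases downstream of all 10 members, as it does for 98.3% of nuclear tRNA genes. It starts by base 10 in 8 members, against 91.6% of nuclear genes. The members that differ are tF(GAA)N, where it starts at base 11, and tF(GAA)G, where it starts at base 27. The first 40 bases after the gene are printed for these and for tF(GAA)D and tF(GAA)F, with the first run of T in capitals.
Downstream of tF(GAA)D: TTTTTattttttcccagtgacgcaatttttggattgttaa
Downstream of tF(GAA)F: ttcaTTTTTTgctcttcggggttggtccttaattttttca
Downstream of tF(GAA)N: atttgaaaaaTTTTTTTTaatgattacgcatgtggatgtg
Downstream of tF(GAA)G: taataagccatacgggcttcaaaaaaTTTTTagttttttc
In the 60 bases upstream, the letters TATAA, the core of the TATA element that TFIIIB can bind, were on the sense strand of tF(GAA)D, tF(GAA)G, tF(GAA)M and tF(GAA)P2, which is 4 of 10 members against 20.9% of nuclear tRNA genes. In these 4 genes the letters start 40, 12, 5 and 39 bases before the gene, in that order. Binding of TFIIIB there was not tested. On the antisense strand the letters were upstream of tF(GAA)F and tF(GAA)P2, 2 of 10 against 14.6%. The search for TATAA was added after the sequences had been seen. tF(GAA)F, without the letters on its sense strand, and its copy tF(GAA)G, with them, have the same deposited value, so their own flanks cannot be related to their levels here.

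FPKM usually means fragments scaled to gene length and library size, which the deposited values did not follow exactly. The level of each gene was deposited as FPKM and as an estimated count of fragments, over the whole gene including its intron. A spliced tRNA and an unspliced precursor were therefore not counted apart. Counts over all listed genes came to 2952 in the WT library (95% interval 2846 to 3060) and 1570 in the cdk1-as1 library (1493 to 1650), spread over 244 and 207 listed genes. The 10 phenylalanine genes took 383 counts (346 to 423) and 254 counts (224 to 287) of these. Intervals of counts are exact Poisson intervals and those of shares and count ratios exact binomial (Clopper-Pearson) intervals, all at 95%. They cover counting error only. They hold only if an estimated count stands for sequenced fragments, none of them counted again for another gene copy. With 1 library per strain no difference between strains could be tested and no replicate error is known.

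Summed over the members, the WT level was 1067148 FPKM and the cdk1-as1 level 614534 FPKM, which is 57.6% of WT (log2 ratio −0.80). The summed level of the other 229 nuclear tRNA genes was 40.3% of WT (log2 ratio −1.31). By estimated counts the log2 ratio was −0.59 (−0.83 to −0.36) for the phenylalanine genes and −1.001 (−1.10 to −0.90) for the others, so the counting intervals of these 2 ratios did not overlap. With the count totals made equal, the phenylalanine ratio turned to 0.32 (0.084 to 0.55) and that of the others was −0.090 (−0.19 to 0.0081). The phenylalanine genes took 10.5% of the nuclear FPKM in WT and 14.4% in cdk1-as1. By counts their share was 13.3% (12.0 to 14.6) and 16.9% (15.0 to 18.9). They make up 4.18% of the nuclear genes, and in both libraries phenylalanine had rank 3 by summed FPKM and by summed counts among the 18 amino acids with genes valued in both. From the highest log2 ratio down it had rank 2 by summed FPKM, after glutamate (−0.74), and rank 4 by summed counts. The sums also hold genes valued in only 1 library, and the ranks depend on this. Arginine came last by summed FPKM at −3.13, but 3 of its 17 genes were valued in both, each at −0.14.

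Gene by gene, 8 of 10 members had a lower FPKM in cdk1-as1, against 91.1% of the 191 nuclear tRNA genes valued in both libraries, a share close to that of all genes. Because 6 of the 8 are identical copies with a shared value, these are 3 of 5 distinct values. The 191 genes hold 68 distinct values and were not reduced in this way. Some rest on very few estimated counts, such as 0.00787 in WT and 0.0122 in cdk1-as1 at a log2 FPKM ratio of −13.42. The median log2 ratio was −0.99 over the members and −1.48 over the 191 genes. None of the 10 was at least 2-fold lower, against 67.0% of the nuclear genes, although the 6 copies, at 50.3% of WT, missed that limit narrowly. By estimated counts 6 of 10 members were lower, against 82.7%. The median of the members, set by the 6 copies, thus lay nearer to 0 than that of the nuclear genes.

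**Figure D1:**
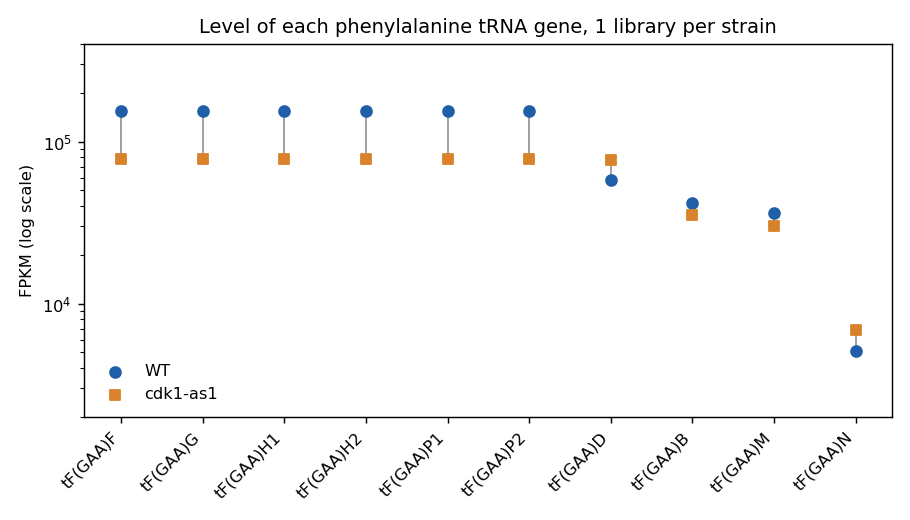
FPKM (log scale) of the 10 phenylalanine tRNA genes, with a circle for the WT library and a square for the cdk1-as1 library, joined by a line for each gene. tF(GAA)F and its 5 identical copies were at 154239 and 77543 FPKM, while tF(GAA)D and tF(GAA)N were higher in the cdk1-as1 library.

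The main source of the phenylalanine signal was the set of 6 identical genes. Each copy was listed at 154239 FPKM in WT and 77543 FPKM in cdk1-as1, which is 50.3% of WT (log2 ratio −0.99). Each copy was given 56.3 and 31.4 counts. The set as a whole held 338 counts (303 to 376) in the WT library and 189 (163 to 218) in the other, and its log2 count ratio was −0.84 (−1.10 to −0.58). The 2 count intervals did not overlap, but these counts are not scaled to the library totals of 2952 and 1570. With equal count totals the set's log2 ratio was 0.072 (−0.19 to 0.33). How fragments were assigned among genes of the same sequence is not stated. The set's counts and intervals hold only if no fragment was counted again for another copy. The shared value does not show what any of tF(GAA)F, tF(GAA)G, tF(GAA)H1, tF(GAA)H2, tF(GAA)P1 and tF(GAA)P2 contributed.

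tF(GAA)D, which differs from tF(GAA)F at 4 bases, had the higher value in cdk1-as1. It stood at 58312 FPKM in WT and at 76882 FPKM, or 132% of WT, in cdk1-as1 (log2 ratio 0.40). Its counts were 19.0 (11.4 to 29.7) and 33.4 (22.7 to 46.3). These count intervals overlap, and the log2 count ratio of 0.81 had an interval from −0.060 to 1.69. Its rank by FPKM among the nuclear tRNA genes was 43 in WT and 13 in cdk1-as1.

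tF(GAA)B, which has the common mature sequence with a shorter intron, was at 41916 FPKM in WT and 35394 FPKM in cdk1-as1 (84.4% of WT, log2 ratio −0.24). Its counts pointed the other way, with 13.5 (6.92 to 22.2) in WT against 17.3 (9.90 to 27.2), and the log2 count ratio was 0.36 (−0.74 to 1.55). tF(GAA)M, which differs from tF(GAA)B only in the intron, was at 36377 and 30170 FPKM (82.9% of WT, log2 ratio −0.27). Its counts were 11.9 (6.20 to 21.0) and 13.3 (6.92 to 22.2), a log2 count ratio of 0.17 (−1.13 to 1.38). By unscaled counts neither gene differed between the libraries beyond counting error. With equal count totals the log2 ratio was 1.27 (0.17 to 2.46) for tF(GAA)B and 1.08 (−0.22 to 2.29) for tF(GAA)M. As deposited, a direction that FPKM and counts give differently is no direction. Such a disagreement, a lower FPKM without a lower count, was found in 18 of the 191 nuclear genes, these 2 included.

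tF(GAA)N was the lowest member. It was at 5107 FPKM in WT and 6833 FPKM in cdk1-as1 (log2 ratio 0.42), from 0.884 and 1.52 estimated counts. Less than 2 counts in each library cannot show a difference. Its sum with tF(GAA)D, which is the whole output of the second mature sequence, rests almost wholly on tF(GAA)D.

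**Figure D2:**
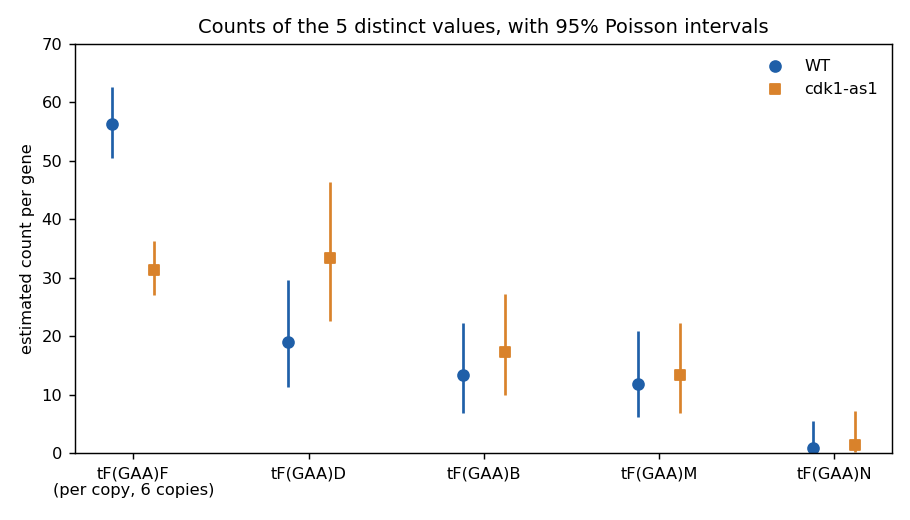
Estimated counts per gene for the 5 distinct values, in WT (circles) and cdk1-as1 (squares), with exact Poisson 95% intervals; the value of tF(GAA)F is per copy, from the summed count of its 6 copies. In WT tF(GAA)F lies above all others, at 56.3 counts per copy, while in cdk1-as1 its 31.4 counts per copy stand beside the 33.4 of tF(GAA)D.

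The order of the members by FPKM was the same in both libraries, with a tF(GAA)F copy first, then tF(GAA)D, tF(GAA)B, tF(GAA)M and tF(GAA)N. The distances between them were not. In WT a tF(GAA)F copy stood at 2.65 times the FPKM of tF(GAA)D and 2.96 times its count, and the count interval per copy (50.5 to 62.7) lay above that of tF(GAA)D. In cdk1-as1 the FPKM ratio was 1.01 and the count ratio 0.941, with a count interval per copy (27.2 to 36.3) inside that of tF(GAA)D. Against tF(GAA)B the FPKM ratio was 3.68 in WT and 2.19 in cdk1-as1, and against tF(GAA)M it was 4.24 and 2.57. In WT tF(GAA)D, tF(GAA)B and tF(GAA)M did not differ from each other beyond their counting intervals, and tF(GAA)N lay below all 3. In cdk1-as1 the intervals of neighbours in the order overlapped throughout. The 6 copies held 88.2% of the members' counts in WT and 74.2% in cdk1-as1.

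Grouped by what splicing would leave, the 2 mature sequences had log2 count ratios of opposite sign as deposited. The 8 genes of the common mature sequence held 363 counts in WT against 219 in cdk1-as1. The log2 ratio was −0.73 (−0.98 to −0.48), and by FPKM −0.92. tF(GAA)D and tF(GAA)N together held 19.9 counts (12.2 to 30.9) and 34.9 (24.4 to 48.7), a log2 ratio of 0.81 (−0.025 to 1.68), and by FPKM 0.40. In WT their share of the phenylalanine counts was 5.20% (3.22 to 7.95), and in cdk1-as1 it was 13.7% (9.79 to 18.6), so the 2 intervals did not overlap. By FPKM the share was 5.94% and 13.6%. With equal count totals both ratios were above 0, at 0.18 (−0.066 to 0.43) for the common sequence and 1.72 (0.89 to 2.59) for the other. The share is taken within each library and does not depend on how the libraries were scaled to each other. It was computed after the sequences had been seen, and with 1 library per strain it describes these libraries only.

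**Figure D3:**
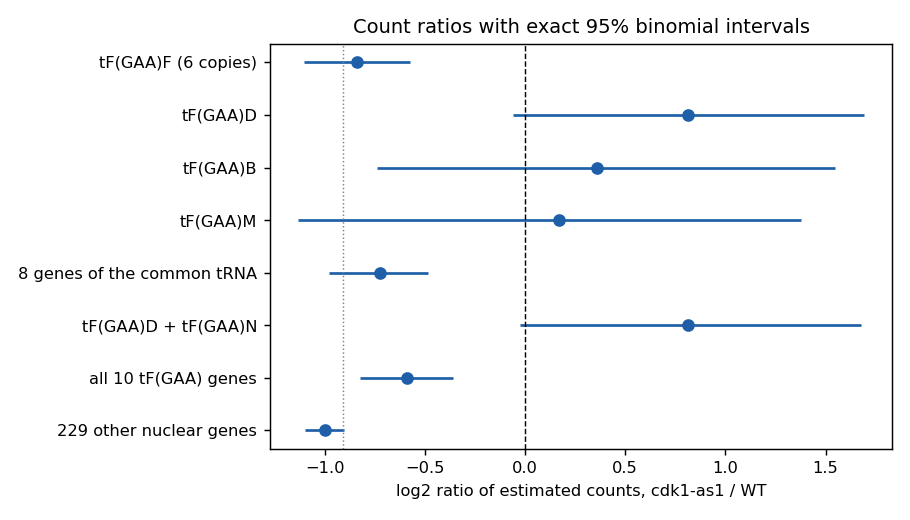
Log2 ratio of estimated counts, cdk1-as1 over WT, with exact binomial 95% intervals, for the sets of phenylalanine genes named on the axis and for the 229 other nuclear tRNA genes; the dashed line is no difference and the dotted line no difference once the count totals of the libraries are made equal. The common mature sequence (8 genes) is at −0.73 and tF(GAA)D with tF(GAA)N at 0.81, and their intervals do not overlap.

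Among the members, genes shared their values where they shared the whole sequence. All 15 pairs of members with the same gene sequence had the same count and FPKM. The 14 pairs with the same mature sequence but another intron never had, nor did the 16 pairs with different mature sequences. Among all intronic nuclear genes, 53 of 75 pairs with the same gene sequence shared their values and 0 of 73 pairs with the same mature sequence alone. Over all nuclear genes 363 of 656 pairs with the same gene sequence did, so an identical sequence did not always bring a shared value. A fragment of spliced tRNA cannot be told apart between tF(GAA)F, its copies, tF(GAA)B and tF(GAA)M, nor between tF(GAA)D and tF(GAA)N. The division among those genes thus rests on fragments that reach the intron or the flanks and on the authors' counting program, and each gene's own value is uncertain for that reason. Between the 2 mature sequences, a fragment of spliced tRNA is distinct only where it covers T6C or A67G.

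FPKM and counts were not in the same proportion in both libraries, nor for members of the same length within a library. The FPKM given for each count of a tF(GAA)F copy was 2742 in WT and 2467 in cdk1-as1. For tF(GAA)D it was 3069 and 2301, for tF(GAA)B 3111 and 2050, for tF(GAA)M 3065 and 2264, and for tF(GAA)N 5774 and 4494. Counts of tF(GAA)B and tF(GAA)M were higher in cdk1-as1, so by arithmetic their lower FPKM comes from this change in proportion. Why the proportion changed was not tested.

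The scale between the libraries also sets the sign for 8 of the 10 members. As deposited, tF(GAA)D and tF(GAA)N were already higher in cdk1-as1 by FPKM and by counts. The scales tried only raise the log2 ratios, by 1.27, 1.31 or 0.91, so none could have turned these 2 members down. The study scaled its data with added RNA standards, but how these entered the deposited FPKM is not stated and could not be checked. The total FPKM over all genes listed was 10626670 for WT against 4408123 for cdk1-as1. Making these totals equal instead adds 1.27 to each log2 ratio. With equal FPKM totals the log2 ratio was 0.28 for tF(GAA)F and its copies, 1.67 for tF(GAA)D, 1.03 for tF(GAA)B, 1.00 for tF(GAA)M and 1.69 for tF(GAA)N. On that scale 0 of 10 members were lower, against 63.4% of the 191 nuclear genes. With equal count totals it was again 0 of 10, against 59.7%, with 0.072 (−0.19 to 0.33) for tF(GAA)F and its copies and 1.73 (0.85 to 2.60) for tF(GAA)D. Which scale is right cannot be told from these tables. On every scale tried the log2 ratio of tF(GAA)D was above that of tF(GAA)F, as any common scale must leave it.

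The tRNA genes of the other aromatic amino acids also all carry introns. Beside them, the phenylalanine genes differed least in summed FPKM as deposited. A common scale keeps the order of the families' log2 ratios but can change which of them lies nearest to 0. The 8 tyrosine genes tY(GUA) summed to 54.9% of WT (log2 ratio −0.87), with 8 of 8 lower and a median of −0.72. Their log2 ratios ran from −1.29 for tY(GUA)D to −0.19 for tY(GUA)J2. The 6 tryptophan genes tW(CCA) summed to 31.5% of WT (log2 ratio −1.67), with 6 of 6 lower, and ran from −2.82 for tW(CCA)K to −1.44 for tW(CCA)G1. By counts the gap was smaller than counting error. The log2 ratio of summed counts was −0.59 (−0.88 to −0.30) for tyrosine and −0.77 (−1.24 to −0.32) for tryptophan, beside −0.59 for phenylalanine, and these intervals overlap. With equal FPKM totals 6 of 6 tryptophan genes, 2 of 8 tyrosine genes and 0 of 10 phenylalanine genes were lower, but with equal count totals these became 0 of 6, 2 of 8 and 0 of 10.

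All 44 other intronic nuclear genes, tryptophan and tyrosine included, had a median log2 FPKM ratio of −0.84 and summed to 42.6% of WT, with 39 of 44 lower. The 137 intronless genes with values in both libraries had a median of −1.65, with 127 lower. Having an intron was thus shared with genes of differing ratios, from −5.69 to 1.56 among the 44, whereas the members spanned −0.99 to 0.42. Both ends of the wider range are poorly measured. The proline gene at −5.69 rests on an estimate of 6.38 fragments for WT and 0.333 for cdk1-as1. Each lysine gene at 1.56 rests on 0.0530 for WT and 0.199 for cdk1-as1. A limited span was also not particular to phenylalanine, since tyrosine ran from −1.29 to −0.19 and tryptophan from −2.82 to −1.44. The tryptophan span is that of 2 distinct values.

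**Figure D4:**
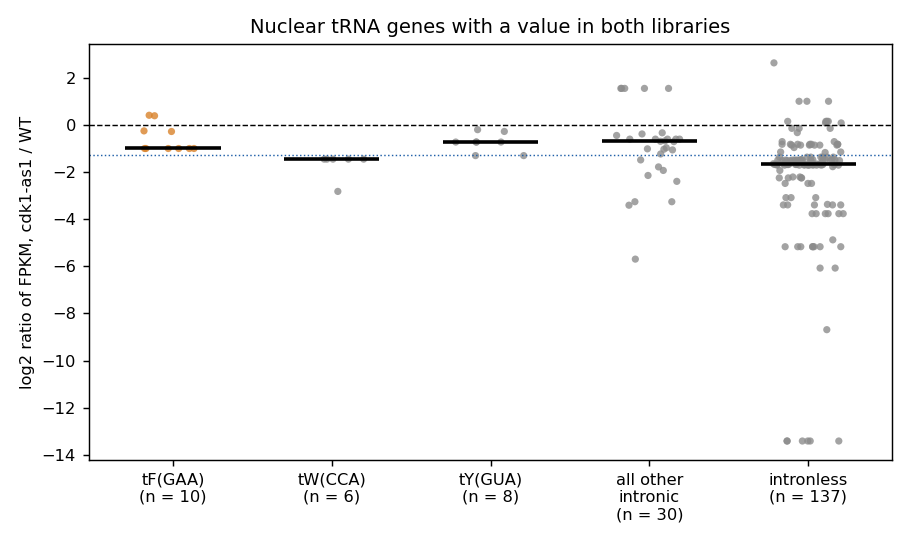
Log2 ratio of FPKM, cdk1-as1 over WT, for each nuclear tRNA gene valued in both libraries, by family, the group of all other intronic genes leaving out tryptophan and tyrosine; black bars are medians, the dashed line is no difference and the dotted line is no difference with equal FPKM totals. All 10 phenylalanine genes lie above the dotted line, between −0.99 and 0.42, and their median bar at −0.99 is that of the 6 identical copies.

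The nuclear genes whose pair of levels lay nearest to that of tF(GAA)F, by distance between log2 FPKM values over the 2 libraries and among 63 other sets of genes with shared values, were tS(GCU)F, tY(GUA)D and tP(UGG)M. The serine gene tS(GCU)F was at 146881 and 75437 FPKM (log2 ratio −0.96, distance 0.081). tY(GUA)D, which shares its values with 1 other copy, was at 150214 and 61252 FPKM (−1.29, distance 0.342). The proline gene tP(UGG)M was at 109917 and 69159 FPKM (−0.67, distance 0.516). With 1 pair of values each, the likeness describes levels in these libraries only.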

How the data were processed

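The data are RNA-seq of S phase cells (total RNA per the labels, small RNA per the study's methods), with 1 WT and 1 cdk1-as1 library. Per the study's methods, data were analysed with the Ensembl R64 annotation and normalized with ERCC spike-in RNA; the submitters' processing notes name sacCer3. Neither the aligner nor the counting program is named in the sources used here. The 2 libraries' tables, as the authors deposited them, hold for every tRNA gene an estimated count and its FPKM. A further table deposited by the authors gives the values of both libraries as RPKM, with 0.1 for genes absent from a library; its RPKM equal the FPKM within 1e-05 of the value for all 10 members. Its columns of log2 fold change, FDR and log10 values hold the authors' own comparison and were not used.

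Genes were matched by position to RefSeq R64 (252 of 252), which gave introns, sequences and neighbours. Log2 ratios of FPKM had no pseudocount. Count intervals used rounded counts. No test between strains was possible. Python 3.11.15, numpy 2.4.6, pandas 2.3.3 and scipy 1.17.1 were used, and the scripts were tested on simulated data. All 10 members are named, with the 3 sets of genes nearest to the highest member and the lowest and highest tW(CCA) and tY(GUA) genes. Alternatives were equal totals, pseudocounts, counts for FPKM, copies counted as 1, a minimum of 10 counts and the RPKM table. The members and lists were chosen with earlier results of these data known. The mitochondrial phenylalanine tRNA gene is not analysed here.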

Additional observations from a re-analysis of the deposited data

How the results depend on the processing

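No paired analysis was possible because there is 1 library per strain. Directions rest on the scale between libraries, and sizes also on counting each copy. The number of members lower, 8 of 10, became 0 with equal FPKM totals over all genes or over the other nuclear genes and 0 with equal count totals, and 3 of 5 with identical copies counted as 1. The median of −0.99 became 0.28, 0.32, 0.072 and −0.24 under the same 4 settings. The log2 ratio of the summed FPKM became 0.47 and 0.52 with equal FPKM totals and −0.38 with copies counted as 1, and that of the summed counts became 0.32 with equal count totals. The shares of nuclear FPKM became 13.3% in WT and 16.9% in cdk1-as1 by counts. With equal FPKM totals over all genes, over the other nuclear genes and with equal count totals, tF(GAA)F and its copies were at 0.28, 0.32 and 0.072, tF(GAA)B at 1.03, 1.07 and 1.27, and tF(GAA)M at 1.00, 1.04 and 1.08. By unscaled counts tF(GAA)B was at 0.36 and tF(GAA)M at 0.17, and a tF(GAA)F copy in cdk1-as1 had 0.941 times the count of tF(GAA)D. Pseudocounts of 1, 100 and 1000 FPKM and the RPKM table turned the direction of none of 29 values, which was fixed in advance. A pseudocount added to both libraries cannot turn the direction of a ratio, and the RPKM equal the FPKM. The cause of these shifts was not tested beyond the arithmetic of each scale. Depth limits tF(GAA)B, tF(GAA)M and tF(GAA)N, which had under 20 counts in each library.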
